A study of Mus musculus with 12 samples.

Results

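Arg1, Nos2 and Il4i1 encode immune enzymes that remove amino acids from the surroundings of T cells, and their RNA was followed in T cells isolated from mouse pancreatic tumors. They were taken by name from the nCounter Mouse Metabolic Pathways panel and are 3 of its 748 endogenous genes. They were chosen by name with their counts in these lanes already known, so their levels and their detection over background are a description and carry no test. Subcutaneous tumors were grown from 500000 KPC.Luc cells, a pancreatic ductal adenocarcinoma line carrying luciferase, in female C57BL/6 mice 8 to 10 weeks old. Each of the 12 mice gave 1 lane, and there were 3 mice in each of 4 groups. Scram+IgG mice received scrambled peptide and isotype IgG, ANT008+IgG mice received ANT008 and isotype IgG, Scram+aPD-1 mice received scrambled peptide and anti-PD-1, and ANT008+aPD-1 mice received both active agents. ANT008 is a peptide antagonist of the receptors for vasoactive intestinal peptide, and anti-PD-1 is an antibody that blocks the PD-1 checkpoint. Peptides were given subcutaneously at 10 µg each day and antibodies intraperitoneally at 200 µg every 3 days, over 10 days of treatment. T cells were pulled from the tumors by magnetic selection on CD90.2 with a stated purity of 80 to 85%, so the RNA also holds that of other cells.

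Arginase 1, the product of Arg1, splits arginine into ornithine and urea. The inducible nitric oxide synthase encoded by Nos2 consumes the same amino acid and makes nitric oxide and citrulline. Il4i1 encodes a secreted L-amino-acid oxidase that acts mainly on phenylalanine and other aromatic amino acids and releases hydrogen peroxide. Activated T cells depend on arginine from outside the cell, and loss of arginine in tumors is known to lower CD3 zeta and to slow T cell division. All 3 enzymes are best known from macrophages, dendritic cells and myeloid suppressor cells, with interferon gamma and microbial products as inducers of Nos2 and interleukin-4 as an inducer of Arg1 and Il4i1.

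The nCounter assay counts barcoded probe pairs that bind RNA without amplification. The stretch of RNA that each probe pair recognizes is 100 bases long, and 2 are shown because the probe defines what was counted. The Arg1 target spans bases 626 to 725 of its transcript and the Il4i1 target bases 1102 to 1201, and in both 1 of the 3 forward reading frames is free of stop codons. The sequences are those of the deposited panel definition, 5′ to 3′, in lower case with no part marked.
Arg1: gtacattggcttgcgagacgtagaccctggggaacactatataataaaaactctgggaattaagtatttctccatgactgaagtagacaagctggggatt
Il4i1: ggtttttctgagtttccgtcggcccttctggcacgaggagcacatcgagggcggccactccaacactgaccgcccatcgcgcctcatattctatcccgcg
The Arg1 target holds 42 G or C bases and the Il4i1 target 61. The Nos2 target spans bases 3715 to 3814 of its transcript and holds 53 G or C bases.

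Depth was unequal and touched each result below. Endogenous totals per lane spanned 5776 to 1486646 counts, and the 2 lowest lanes were ANT008+aPD-1 mice 1 and 3 with 5776 and 24813. Background was set in each lane from its 8 negative probes, as their mean plus 2 SD, and lay between 9.94 and 28.2 counts. A scaled count is a count divided by lane size, for which the 3 housekeeping genes detected in every lane were averaged geometrically. The scaled background was 358 and 149 in ANT008+aPD-1 mice 1 and 3 and 3.42 to 46.3 in the other 10 lanes. In the deposited table a mark stands on mouse 1 of Scram+IgG and on mouse 1 of ANT008+IgG, and its meaning is not given. Of the 11 T cell markers on the panel, 7 to 11 were above background in each lane. In bulk RNA, fewer cells of a type and less RNA per cell cannot be told apart.

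Arg1 was readily counted in these T cell preparations and was above background in 12 of 12 lanes, at 5.23 to 977 times the limit. Its raw count was 12621, 564 and 5415 in Scram+IgG mice 1 to 3 and 8628, 1017 and 139 in ANT008+IgG mice. Scram+aPD-1 mice had 20949, 2152 and 583, and ANT008+aPD-1 mice 52, 3851 and 412. The lowest value, 52 counts, came from the shallowest lane, where the limit was 9.94. As a share of the endogenous counts, Arg1 made up 0.909%, 0.220% and 0.364% in Scram+IgG mice, and ANT008+IgG mice had shares of 0.636%, 0.502% and 0.139%. For Scram+aPD-1 mice the shares were 1.42%, 0.324% and 0.624%, and for ANT008+aPD-1 mice 0.900%, 1.43% and 1.66%. The share in ANT008+aPD-1 mouse 1 had an exact 95% binomial interval of 0.673% to 1.18%, which covers counting error only. By count among the 748 genes, Arg1 held rank 6 to 10 in the ANT008+aPD-1 lanes, 11 to 58 in Scram+aPD-1, 17 to 116 in Scram+IgG and 23 to 175 in ANT008+IgG. Of the 748 genes, 142 were above background in all 12 lanes.

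Nos2 gave far fewer counts and was above background in 10 of 12 lanes. Its raw count was 385, 17 and 134 in Scram+IgG mice, 247, 15 and 20 in ANT008+IgG mice, 691, 136 and 48 in Scram+aPD-1 mice and 11, 196 and 11 in ANT008+aPD-1 mice. The lanes at or below the limit were ANT008+IgG mouse 2, with 15 counts against 17.7, and ANT008+aPD-1 mouse 3, with 11 against 12.4. Just above the limit were Scram+IgG mouse 2, at 1.04 times, and ANT008+aPD-1 mouse 1, at 1.11 times. Of the ANT008+aPD-1 lanes, mouse 2 alone was well above, at 11.2 times its background, while the 3 Scram+aPD-1 lanes were at 32.2, 12.1 and 4.25 times. With the highest negative probe as the limit 9 lanes passed, and with the mean plus 3 SD 8 did.

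Il4i1 was at background in most lanes. Its raw count was 26, 17 and 47 in Scram+IgG mice, 44, 12 and 7 in ANT008+IgG mice, 48, 15 and 6 in Scram+aPD-1 mice and 5, 12 and 5 in ANT008+aPD-1 mice. It passed the limit in 5 of 12 lanes, among them 0 of 3 with ANT008+aPD-1, and no lane exceeded 2.24 times its limit. Under other limits 4, 6 or 10 lanes passed, the last with the plain mean of the negative probes.

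**Figure D1:**
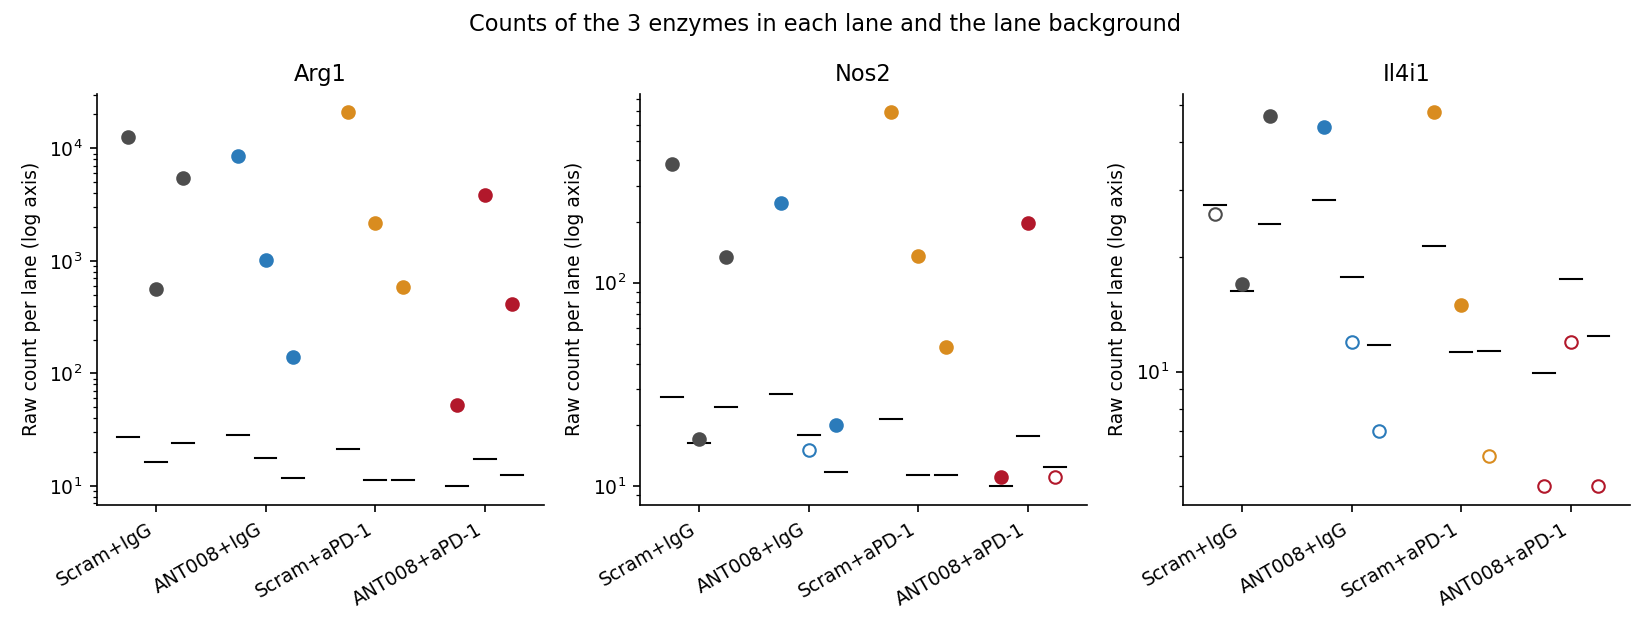
Raw counts of Arg1, Nos2 and Il4i1 in each of the 12 lanes, on log axes, with mice 1 to 3 from left to right in each group; the short black line is the background of that lane, and open circles are counts not above it. Arg1 lies above the line in 12 lanes, Nos2 in 10 and Il4i1 in 5, and none of the 3 ANT008+aPD-1 lanes has Il4i1 above it.

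After scaling to lane size, Arg1 was highest on average in the mice given both agents, but the groups overlapped. Its scaled count was 2052, 537 and 847 in Scram+IgG mice, 1371, 1750 and 277 in ANT008+IgG mice, 3728, 652 and 2389 in Scram+aPD-1 mice, and 1874, 3039 and 4958 in ANT008+aPD-1 mice. The group means were 3290 ± 1557 for ANT008+aPD-1, 2256 ± 1542 for Scram+aPD-1, 1145 ± 800 for Scram+IgG and 1133 ± 765 for ANT008+IgG (SD, n = 3 mice each). Each group in this order overlapped the next. The scaled background stood under all 12 Arg1 values, also in ANT008+aPD-1 mouse 1, where the value was 1874 and the background 358.

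Scaled Nos2 averaged lowest in the groups without anti-PD-1, though Scram+IgG and Scram+aPD-1 overlapped. It was 62.6, 16.2 and 21.0 in Scram+IgG mice and 39.3, 25.8 and 39.9 in ANT008+IgG mice, against 123, 41.2 and 197 in Scram+aPD-1 mice and 396, 155 and 132 in ANT008+aPD-1 mice. The group means were 228 ± 146 for ANT008+aPD-1, 120 ± 77.8 for Scram+aPD-1, 35.0 ± 7.96 for ANT008+IgG, then 33.2 ± 25.5 for Scram+IgG (SD, n = 3 mice each). The 3 Scram+aPD-1 mice lay above the 3 ANT008+IgG mice, the closest being 41.2 and 39.9, and this held for 1.09% of the 640 genes tested. The 3 ANT008+aPD-1 mice lay above the 3 Scram+IgG mice, as for 7.81% of genes. In ANT008+aPD-1 mice 1 and 3, however, the scaled background was itself 358 and 149, so the values of 396 and 132 are near what background alone gives. In mouse 2, with a scaled background of 13.8, the value was 155, above the Scram+IgG range of 16.2 to 62.6. After subtraction of the negative probe mean the groups overlapped.

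Scaled Il4i1 followed lane size. It was 4.23 to 16.2 in Scram+IgG mice, 6.99 to 20.7 in ANT008+IgG mice and 4.55 to 24.6 in Scram+aPD-1 mice. With ANT008+aPD-1 it was 180, 9.47 and 60.2 over scaled backgrounds of 358, 13.8 and 149. The highest values were those of the shallowest lanes, where 5 counts stood behind each. Across the 12 mice the log2 scaled level and log2 lane size had a Pearson r of -0.95 (permutation p = 1e-05, the smallest that 100000 permutations can give) and a Spearman rho of -0.90 (permutation p = 0.00021). The adjusted values over the 12 relations computed were 0.00012 and 0.00138, and without the 2 mice farthest from the median level r was -0.88. Both measures are made with the lane size, and for counts near background the division alone gives a negative r. The p-values therefore test no property of Il4i1.

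**Figure D2:**
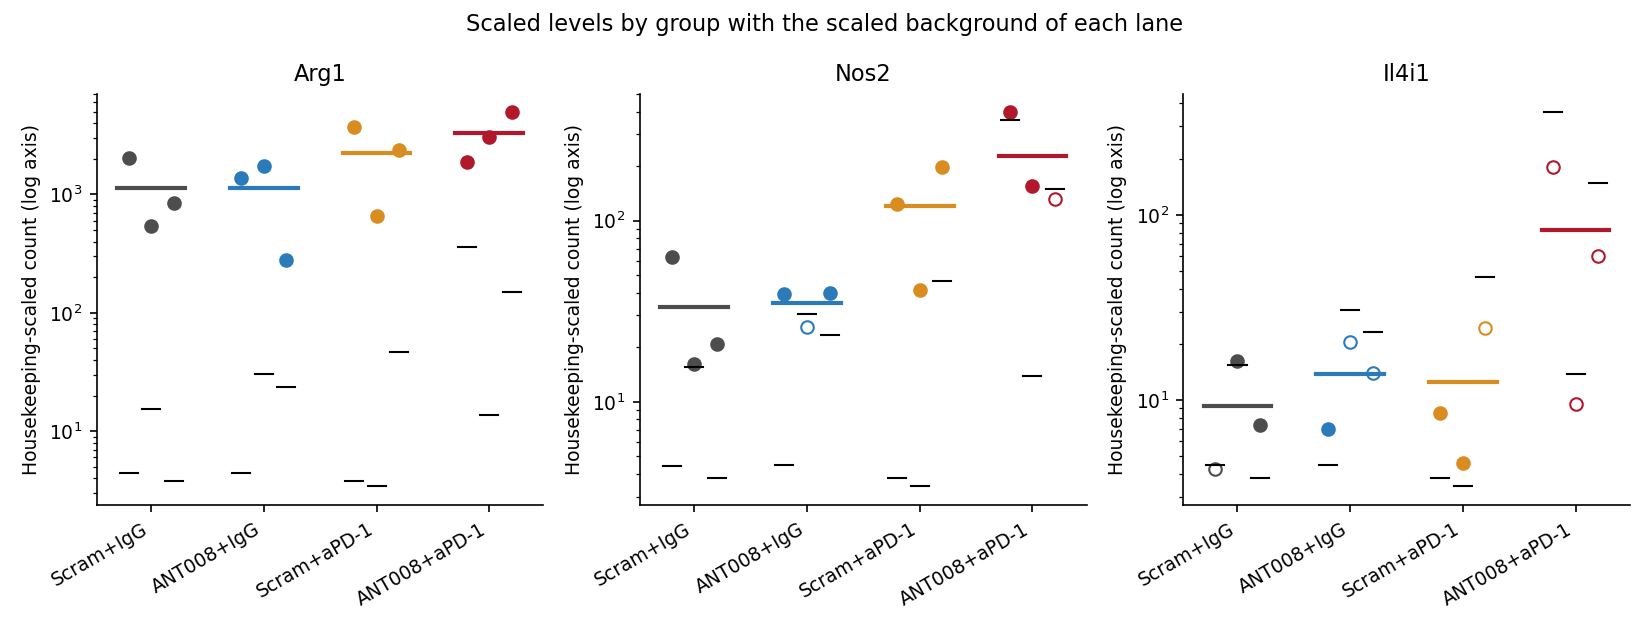
Housekeeping-scaled counts of the 3 enzymes by group, on log axes; points are mice, long bars are group means, short black lines are the scaled background of the same lane, and open circles are counts not above background. Arg1 stands clear of the black lines in all groups, and Nos2 in ANT008+aPD-1 mouse 2 at 155 over 13.8, while Il4i1 lies under them in all 3 ANT008+aPD-1 lanes.

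Against Scram+IgG, neither agent nor both together gave a change in any of the 3 enzymes that passed an FDR below 0.1 in edgeR's quasi-likelihood test over 640 genes. The test called 0 genes in each of the 3 comparisons and 0 in the test for any difference among the 4 groups, which is 0% of the genes. At an unadjusted p below 0.05 there were 3 genes with ANT008+IgG (0.469%), 7 for Scram+aPD-1 (1.09%), 82 in the comparison of ANT008+aPD-1 (12.8%) and 29 for any difference (4.53%). Nothing says whether the mice of a group shared a cage or a day, and the p-values measure the spread between these mice.

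Nos2 differed most from control where anti-PD-1 was given, though short of the threshold. Its log2 fold change was 1.79 with Scram+aPD-1 (SE 0.64, edgeR FDR 0.988), with the lowest unadjusted p of the 640 genes. All 7 genes under an unadjusted p of 0.05 in that comparison were higher (1.09%), and Nos2 was 1 of them. With ANT008+aPD-1 the log2 fold change was 2.59 (SE 0.70, edgeR FDR 0.309), the third lowest p, in a comparison where 9.38% of genes were higher at an unadjusted p below 0.05. With ANT008+IgG it was 0.06 (SE 0.64), and 6 alternatives and the omission of any of 4 mice turned its sign. The test for any difference among the groups gave an edgeR FDR of 0.998 for Nos2, and of the 3 enzymes Nos2 was the 1 with an unadjusted value below 0.05. The interaction of the 2 agents was not called for any of the 3 genes by edgeR (FDR 0.993), so a difference between the anti-PD-1 effects with and without ANT008 was not shown. By the exact permutation test of 3 mice against 3, where the smallest two-sided p is 0.1, Nos2 in ANT008+aPD-1 mice exceeded that in Scram+IgG mice by 2.81 on the log2 scale with 1 added (exact p = 0.1, adjusted 0.45 over 9 comparisons). It was 1.81 with Scram+aPD-1 (exact p = 0.2, adjusted 0.45).

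The Nos2 call for both agents turned on single mice and on the tool. Without Scram+IgG mouse 1, the control with the highest Nos2 and 1 of the marked lanes, the log2 fold change was 3.42 (edgeR FDR 0.0335), and 84 genes were called in place of 0. Without ANT008+aPD-1 mouse 2 it was 2.84 (edgeR FDR 0.0712), with 68 genes called, but the remaining ANT008+aPD-1 lanes are those with Nos2 at background. In DESeq2 it was 2.45 (FDR 0.0180, 30 genes called) and in voom with sample weights 2.99 (FDR 0.0192, 156 genes called). Other settings stayed short of the threshold. With background subtracted it was 2.16 (edgeR FDR 0.394). Without Scram+IgG mouse 2 it was 2.28 (edgeR FDR 0.636), and without Scram+IgG mouse 3 it was 2.35 (edgeR FDR 0.768). Leaving out the 2 shallowest lanes, a choice made after seeing the data, gave 2.19 with 1 ANT008+aPD-1 mouse left. Scaled to the positive controls, or unscaled, all 3 enzymes were lower with ANT008+aPD-1 (log2 fold changes of -3.15 to -1.30), with a median over all genes of -4.37 and -3.44, where the housekeeping scaling gave 0.12. Relative to those medians, all 3 values were higher, but counts near background can fall little further with depth. Il4i1 in the ANT008+aPD-1 lanes, and Nos2 in mice 1 and 3 of that group, were near background. For these 2 enzymes the comparison with the medians therefore cannot tell whether there was a relative rise, and this was not tested. In ANT008+aPD-1 mouse 2, Nos2 was at 11.2 times its background.

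Arg1 had a log2 fold change of 1.53 with ANT008+aPD-1 (SE 0.78, edgeR FDR 0.447) and 0.98 with Scram+aPD-1 (SE 0.77, edgeR FDR 0.988). With ANT008+IgG it was -0.02 (SE 0.76). Of the alternatives run for both agents, voom with sample weights alone passed the threshold, at 2.25 (FDR 0.0560). In the exact permutation test Arg1 differed by 1.64 on the log2 scale with both agents (exact p = 0.2, adjusted 0.45).

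Il4i1 had a log2 fold change of 2.65 with ANT008+aPD-1 (SE 1.11, edgeR FDR 0.360), from 3 lanes in which it was at background. With the negative probe mean subtracted before the fit the value was 0.47 (edgeR FDR 0.977), and without the 2 shallowest lanes, a choice made after seeing the data, it was 0.14. Without ANT008+aPD-1 mouse 2 it was 3.61 (edgeR FDR 0.0582). With the single agents it was 0.59 (SE 0.94) and 0.20 (SE 0.97).

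**Figure D3:**
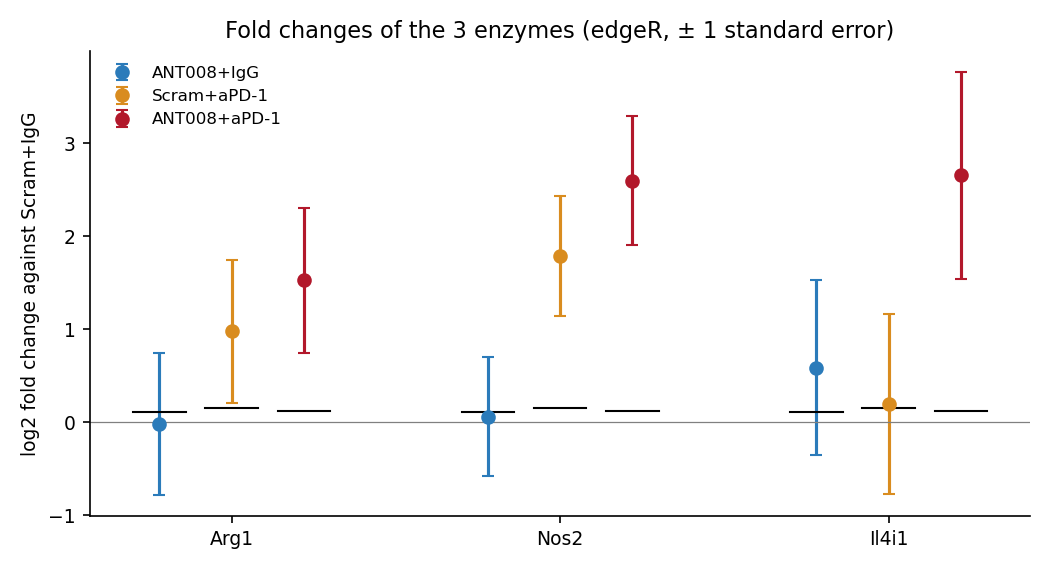
Log2 fold changes of the 3 enzymes against Scram+IgG from edgeR, with bars of 1 standard error and 3 mice in each group; short black lines are the median over the 640 genes tested in that comparison. The Nos2 values with anti-PD-1, 1.79 and 2.59, lie farthest from the median in units of their error. Behind the 2.59, ANT008+aPD-1 mice 1 and 3 had Nos2 at 1.11 and 0.886 times background. The Il4i1 value of 2.65 rests on counts at background.

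**Figure D4:**
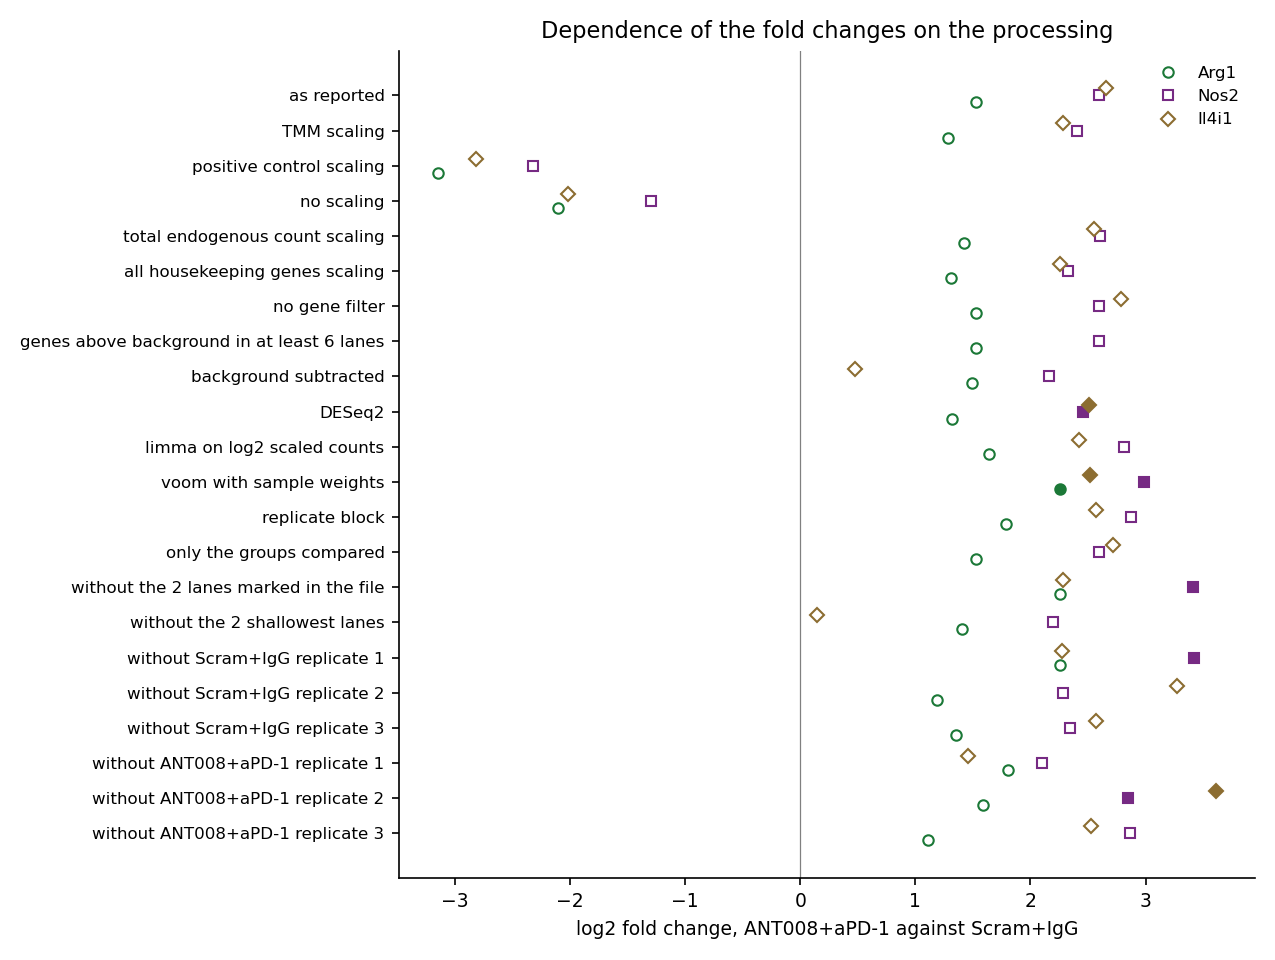
Log2 fold changes of the 3 enzymes for ANT008+aPD-1 against Scram+IgG under each processing alternative; filled symbols passed an FDR below 0.1 and open ones did not. Nos2 stays between 2.10 and 3.42 except with positive control scaling and no scaling, and Il4i1 falls to 0.47 with background subtracted and to 0.14 without the 2 shallowest lanes.

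Markers of myeloid cells were measured in the same lanes. The panel holds 8 of them, and 2 to 8 were above background in each lane. Their summed scaled count ran from 568 to 2582 in Scram+IgG mice, 924 to 2458 in ANT008+IgG mice, 1288 to 3210 in Scram+aPD-1 mice and 2470 to 3465 in ANT008+aPD-1 mice. In ANT008+aPD-1 mouse 1 that sum was 71 raw counts, with 2 of 8 markers above background, and the negative probe mean accounts for 54.9% of it. In the other lanes that share was 0.56% to 17.7%. With the negative probe mean subtracted, the ANT008+aPD-1 range was 1153 to 2852 against 504 to 2565 with Scram+IgG. The summed T cell markers ran from 1090 to 5622, 1872 to 3668, 2085 to 3820 and 4238 to 6775 in the same order. Of the 8 myeloid markers 0 were called with both agents by edgeR, 3 had an unadjusted p below 0.05 against 12.8% of all genes, and their median log2 fold change was 1.07 against 0.12 over all genes. With Scram+aPD-1 the median was 0.72 against 0.15, and Cd14 had an unadjusted p below 0.05. The 11 T cell markers had a median of 0.88 with both agents and 0.06 with Scram+aPD-1, and the 4 NK cell markers, 3 or 4 of them above background in each lane, had 0.75 and -0.19. The 3 myeloid markers with an unadjusted edgeR p below 0.05 with both agents were Cd14, Cd163 and Flt3, at 2.36, 2.62 and 3.05. They are named after their values were seen. Cd14 is the co-receptor for bacterial lipopolysaccharide, Cd163 a macrophage scavenger receptor and Flt3 a receptor of dendritic cell precursors. Cd14 was above background in 3 of 3 ANT008+aPD-1 lanes, Cd163 in 1 and Flt3 in 0. B cell markers were near background, with 0 to 2 of 4 above it in each lane. The part of myeloid cells in the Arg1 and Nos2 values was not tested.

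Across the 12 mice, log2 Arg1 rose and fell with the summed myeloid markers, with a Pearson r of 0.89 (permutation p = 0.00018, adjusted 0.00108) and a Spearman rho of 0.90 (permutation p = 0.00023, adjusted 0.00138). With the summed T cell markers, a relation added after seeing the data, r was 0.79 (permutation p = 0.00237, adjusted 0.00945) and rho 0.82 (permutation p = 0.0020, adjusted 0.0080). For Nos2, r was 0.74 with the myeloid markers (permutation p = 0.00554, adjusted 0.0133) and 0.78 with the T cell markers (permutation p = 0.00315, adjusted 0.00945), with rho of 0.68 (permutation p = 0.0182, adjusted 0.0364) and 0.80 (permutation p = 0.00272, adjusted 0.00816). Leaving out the 2 mice farthest from the median of Arg1 or Nos2 left these 4 values of r between 0.77 and 0.88. All values in a lane share the division by its size. The permutations moved mice freely among the 4 groups, so differences between groups enter each r and its p-value. No relation within a group was tested. With the negative probe mean subtracted from enzymes and marker sums, an alternative added after seeing the data, Arg1 had an r of 0.85 with the myeloid and 0.80 with the T cell markers (permutation, adjusted p = 0.0046 and 0.0079 over 5 relations). Nos2 then had 0.57 and 0.66 (permutation, adjusted p = 0.0545 and 0.0357), and its relation to the myeloid markers no longer passed 0.05. Arg1 and Nos2 had an r of 0.65 with each other (permutation p = 0.0219, adjusted 0.0438) and a rho of 0.69 (permutation p = 0.0155, adjusted 0.0364), and r was 0.62 without the 2 farthest mice. After the subtraction it was 0.59 (permutation, adjusted p = 0.0545). Il4i1 had an r of 0.24 with the myeloid markers and 0.27 with Arg1 (permutation p = 0.459 and 0.397).

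A ratio to markers of the same lane needs no lane size. Per 100 counts of the summed myeloid markers, after subtraction of the negative probe mean, Arg1 was 79.9, 105 and 89.7 with Scram+IgG and 147, 125 and 171 with ANT008+aPD-1. ANT008+IgG mice had 56.1, 99.6 and 32.1, and Scram+aPD-1 mice 117, 51.1 and 107. The ANT008+aPD-1 mice lay above the Scram+IgG mice, as 1.09% of the 640 genes did by this ratio. Of the endogenous genes, however, 79.1% were not above background in ANT008+aPD-1 mouse 1 and 52.3% in mouse 3. Such genes keep few counts after the subtraction, so the 1.09% cannot tell how unusual Arg1 is. Without the subtraction, Arg1 with ANT008+aPD-1 ran from 73.2 to 143 against 79.5 to 94.6, and the groups overlapped. The lowest of these, 73.2, was ANT008+aPD-1 mouse 1, at 147 with the subtraction. Its myeloid sum was 71 raw counts, of which the negative probe mean accounts for 54.9%. Per 100 counts of the T cell markers Arg1 averaged 53.9 ± 22.4 for Scram+IgG, 43.0 ± 30.9 for ANT008+IgG, 66.0 ± 34.1 for Scram+aPD-1 and 70.5 ± 13.0 for ANT008+aPD-1 (SD, n = 3), all overlapping.

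Nos2 per 100 myeloid marker counts was 2.36, 1.63 and 2.01 with Scram+IgG and 3.78, 3.10 and 7.78 with Scram+aPD-1, which did not overlap, as for 0.312% of genes. With ANT008+IgG it was 1.53, 0.654 and 3.35, and with ANT008+aPD-1 it was 19.1, 6.12 and 1.95. The first of these rests on 11 counts and the last on 11 counts at background. Per 100 T cell marker counts Nos2 was 1.08, 0.714 and 1.77 with Scram+IgG and 3.23, 1.91 and 4.84 with Scram+aPD-1, again apart, as for 0.469% of genes. With both agents it was 7.35, 3.55 and 0.938, of which the first and the last again rest on 11 counts. Without the subtraction Scram+aPD-1 and Scram+IgG stayed apart in both ratios, at 3.20 to 8.18 against 2.19 to 2.85 and at 1.98 to 5.15 against 1.11 to 1.92.

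**Figure D5:**
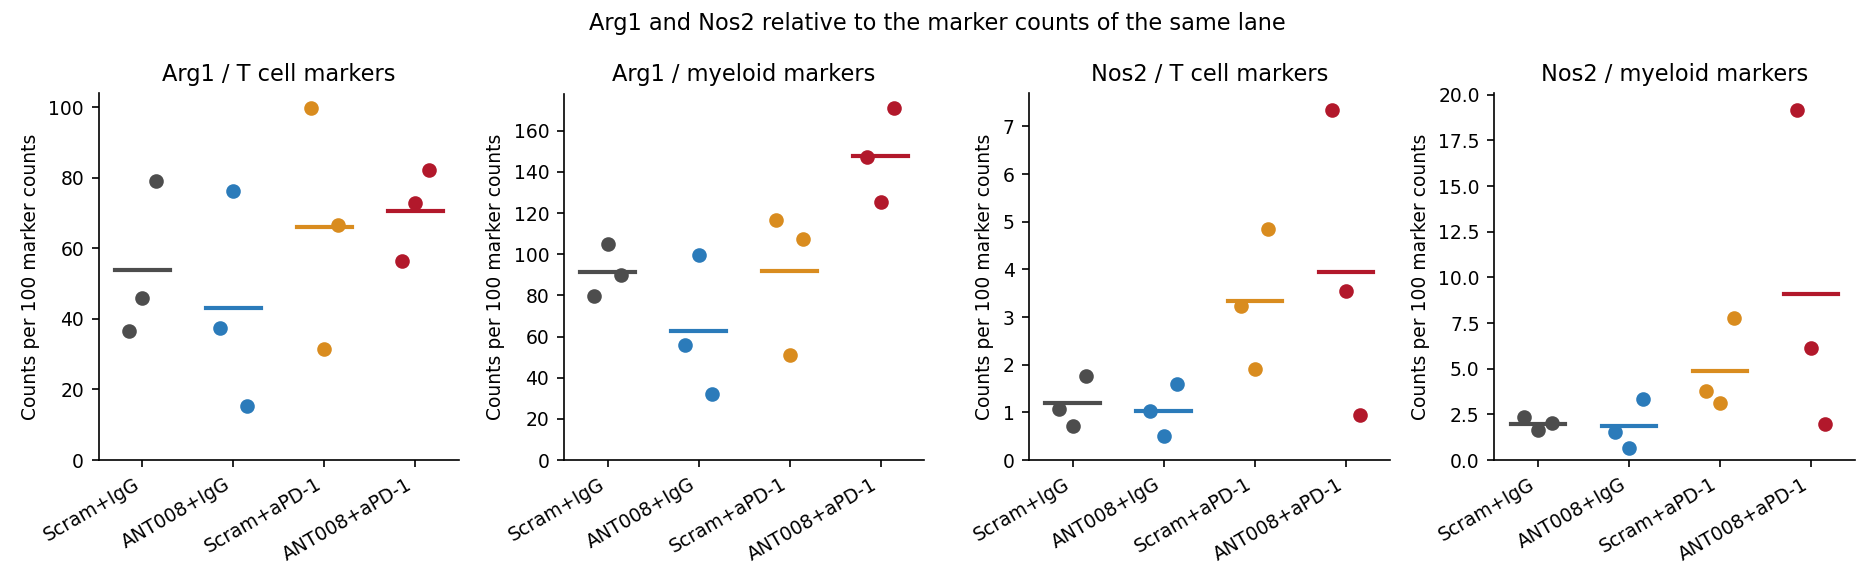
Arg1 and Nos2 counts per 100 summed counts of the 11 T cell markers or the 8 myeloid markers of the same lane, with negative probe means subtracted; points are mice 1 to 3 from left to right in each group, bars are means, and axes start at 0. The 3 Scram+aPD-1 mice lie above the Scram+IgG mice for Nos2 in both ratios, and the 3 ANT008+aPD-1 mice lie above the Scram+IgG mice for Arg1 over the myeloid markers.

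Other genes of the same pathways did not pass the threshold either. Among 11 tested genes of arginine, nitric oxide and polyamine metabolism, of 12 on the panel, 0 were called by edgeR in any comparison, and the median log2 fold change with both agents was 0.60 against 0.12 over all genes. Ass1, argininosuccinate synthase, which rebuilds arginine from the citrulline that nitric oxide synthases release, averaged 69.3 ± 59.9 scaled counts with Scram+IgG, 134 ± 25.9 with Scram+aPD-1 and 167 ± 82.7 with ANT008+aPD-1 (SD, n = 3). Its log2 fold change with both agents was 1.39 (SE 0.58, edgeR FDR 0.360), and in ANT008+aPD-1 mouse 1 it had 2 counts, under background. Asl, the next enzyme of that cycle, was at 0.03 with 1 of 3 ANT008+aPD-1 lanes above background, and Odc1, which turns the ornithine made by arginase into polyamines, was at 0.60 (SE 0.32, edgeR FDR 0.458). Nos1, the neuronal synthase, had an unadjusted p below 0.05 too, but was above background in 0 of 3 ANT008+aPD-1 lanes and is named after its values were seen.

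Of 13 tested genes of tryptophan, phenylalanine and tyrosine catabolism, of 19 on the panel, 0 were called by edgeR and 1 had an unadjusted p below 0.05 with both agents (Kmo, kynurenine monooxygenase, at 1.44, above background in 1 of 3 ANT008+aPD-1 lanes and named after its value was seen), against 12.8% of all genes. The list median was 0.15. Ido1 and Ido2, which open the tryptophan ring, had log2 fold changes of 0.44 and 0.90 with both agents (edgeR FDR 0.968 and 0.659), and each was above background in 1 of 3 ANT008+aPD-1 lanes. Tdo2, a dioxygenase of the same step, was above background in 1 lane and was not tested.

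Genes that sense or answer a lack of amino acids were likewise not called. The 4 tested genes of the deprivation response had a median log2 fold change of -0.26 with both agents and 0.69 with ANT008+IgG. Over all genes the medians were 0.12 and 0.11. Atf4, the transcription factor of that response, was at 0.49 and Asns, its target asparagine synthetase, at -0.26 with both agents (edgeR FDR 0.854 and 0.929). With ANT008+IgG the mice differed widely, at 3410 ± 4229 scaled counts for Atf4 and 240 ± 313 for Asns (SD, n = 3). Of the 4 transport genes 0 were called by edgeR, and Slc7a5, which carries large neutral amino acids, was at 0.24 (edgeR FDR 0.929). Of 16 inducer, receptor and regulator genes of the enzymes 0 were called, 4 had an unadjusted p below 0.05 with both agents against 12.8% of all genes, and 13 were above 0, as were 56.7% of all genes. The 4 were Il10, Il4, Tnf and Myd88, at 3.82, 3.26, 1.44 and 1.34, named after their values were seen. They were above background in 6, 8, 12 and 10 of the 12 lanes. How many of these were ANT008+aPD-1 lanes is not given here, so the values of Il10 and Il4 may rest on counts near background. Ifng, the main inducer of Nos2, averaged 57.7 ± 78.7 scaled counts with Scram+IgG and 178 ± 85.7 with both agents, a log2 fold change of 1.55 (SE 0.95, edgeR FDR 0.473). With both agents Ifng was above background in mouse 2 alone, with 250 counts, and had 7 counts, under background, in mice 1 and 3. Stat6, which transmits interleukin-4 signals, was at -0.43 with both agents.

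The genes most like each enzyme across lanes were sought among genes above background in all lanes where the enzyme was. For Arg1, over 12 lanes and 141 genes, they were Gzma, a granzyme of cytotoxic cells, Fabp5, a fatty acid binding protein, and Ptprc, the pan-leukocyte antigen CD45, with a Pearson r of 0.91, 0.90 and 0.90 against a median of 0.30. For Nos2, over 10 lanes and 149 genes, they were Cd28, a T cell co-stimulatory receptor, Cd14, and Traf1, a signalling adaptor of the TNF receptor family, with an r of 0.98, 0.97 and 0.94 against a median of 0.23. These correlations describe the lanes, which share their scaling. The lanes used for Nos2 include ANT008+aPD-1 mouse 1, where its 11 counts were 1.11 times background. In that lane a gene had to exceed a scaled background of 358 to be considered. Il4i1 was above background in too few lanes for such a list.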

How the data were processed

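T cell RNA of 12 mice was measured by nCounter, 1 lane a mouse. The deposited table holds raw counts of 782 probes per lane, as the authors exported them, without background subtraction, scaling or pooling, and the panel definition with probe targets; the sources used here give an FDR threshold of 0.1 for single genes but name neither the normalization nor the test. Groups and mouse numbers were taken from the sample titles. The members and gene lists were chosen with earlier results of these data known. Of the 748 endogenous symbols, 747 were found in RefSeq (GRCm38.p6, names only). Lane background, lane size and filter were set as described above, and a gene entered the test if at least 3 lanes exceeded background, which left 640. The test was edgeR's quasi-likelihood fit (version 4.0.16 in R 4.3.3) over all 4 groups, with no covariates, Benjamini-Hochberg adjustment and a threshold of 0.1. Standard errors come from the test statistic. Single values were compared by exact permutation on log2(scaled count + 1), and correlations by 100000 permutations (scipy 1.17.1). The fit was also run on counts simulated with the spread estimated from these same lanes. The outcome is not given here and carries no support for the results. Genes named beside the members were a list of 17, of which 12 are on the panel, and the 3 genes most like each member. One gene of that list is not reported here. Alternatives were other scalings, filters and background limits, background subtraction, DESeq2 1.42.0, limma 3.58.1 with and without voom weights, pairs of groups fitted alone, a block by replicate number, and each mouse left out. No pair of lanes held identical counts. Intervals cover counting error only.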

Additional observations from a re-analysis of the deposited data

How the results depend on the processing

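For both agents against Scram+IgG, Arg1, Nos2 and Il4i1 had log2 fold changes of -3.15, -2.32 and -2.82 with positive control scaling and -2.11, -1.30 and -2.01 without scaling, where the difference in depth stays in the values. Voom with sample weights took all 3 past the threshold, at 2.25, 2.99 and 2.52, as well as Nos2 with Scram+aPD-1, at 2.10. DESeq2 did so for Nos2 at 2.45 and Il4i1 at 2.51, and leaving out the 2 marked lanes, added after seeing the data, for Nos2 at 3.41 (edgeR FDR 0.0208). The adjusted p of any difference among the groups was 0.0578, 0.0379 and 0.0807 for Arg1, Nos2 and Il4i1 with voom, 0.0136 and 0.0769 for Nos2 and Il4i1 with DESeq2, and 0.0912 for Nos2 without the marked lanes. Values near 0 changed sign. Nos2 with ANT008+IgG was -0.011 with TMM, -0.78 with positive controls, -0.93 unscaled, -0.079 with all housekeeping genes, -0.17 with background subtracted and -0.0013 in DESeq2. Arg1 with ANT008+IgG was 0.55 without the marked lanes. Il4i1 with ANT008+IgG was -0.34, -0.51 and -0.062 with positive controls, unscaled and background subtracted, and with Scram+aPD-1 it was -0.47, -0.38 and -0.16, as well as -0.050 with the total endogenous count and -0.18 without the marked lanes. With background subtracted, its log2 differences in the permutation test were -0.16 and -0.12. For each of these, the cause was not tested.

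Genes called moved from 0 with voom to 44, 143 and 156 for ANT008+IgG, Scram+aPD-1 and both agents and to 199 for any difference. For both agents 30 were called by DESeq2, 2 with TMM, 1 with the total endogenous count and 83 without the marked lanes, and for any difference 30 and 18 by DESeq2 and without the marked lanes. Il4i1 passed the plain mean of the negative probes in 10 lanes. Without subtraction Arg1 per 100 myeloid marker counts averaged 113 with both agents and Nos2 2.49 with Scram+IgG. With the total endogenous count the r of Arg1 and Nos2 was 0.64 (permutation, adjusted p = 0.0518), and with background subtracted from enzymes and marker sums it was 0.59 and that of Nos2 with the myeloid markers 0.57 (permutation, adjusted p = 0.0545 for both).

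Leaving out each mouse, Arg1 ranged from -0.47 to 0.71 with ANT008+IgG, 0.40 to 1.70 with Scram+aPD-1 and 1.11 to 2.25 with both agents. Nos2 ranged from -0.25 to 0.90, 1.28 to 2.63 and 2.10 to 3.42, and Il4i1 from 0.15 to 1.18, -0.39 to 0.80 and 1.46 to 3.61. Genes called ranged from 0 to 84 for both agents, highest without Scram+IgG mouse 1, and from 0 to 4 for any difference, where the 4 were called without ANT008+aPD-1 mouse 2. The ranges of the adjusted p of any difference were 0.435 to 0.999 for Arg1, 0.112 to 0.999 for Nos2 and 0.245 to 0.999 for Il4i1.

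The replicate numbers gave no pairing that held over all groups. Mouse 1 of Scram+IgG, of ANT008+IgG and of Scram+aPD-1 were alike, with an r of 0.68 to 0.78. Mouse 1 of ANT008+aPD-1 had an r of -0.25 to -0.11 with them. Deviations of same-numbered mice had an r of -0.64 to 0.78 over 18 pairs, 7 of them over 0.1, and 3 of 12 mice correlated best with their own number. With the replicate number as a block, 0 genes were called by edgeR, Nos2 with both agents was at 2.87 (FDR 0.107), and Arg1 with ANT008+IgG was at 0.17. Il4i1 had no fit under the filter of at least 6 lanes. Depth limits what the ANT008+aPD-1 mice 1 and 3 can show for Nos2, Il4i1 and the other genes near background, and 3 mice a group limit each comparison.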
